A study of Rattus norvegicus with 18 samples.

Results

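Neurotransmitter receptor subunits were examined in rat spinal cord material measured on 18 single-channel Affymetrix expression arrays. A gene was taken as a member when its platform symbol belonged to the ionotropic or metabotropic glutamate, GABA-A, GABA-B, glycine, nicotinic, muscarinic, serotonin, adrenergic, dopamine, P2X or P2Y receptor families. This gave 107 genes with 161 probe sets, out of 14217 named genes and 31042 tested probe sets. Each gene was read from its brightest probe set by the mean of all arrays, since 39 members had several. Subunits and receptors of these families that had no probe set of their own name were not analysed here.

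Of the 18 arrays, 6 were of material given bone morphogenetic protein (BMP, a secreted growth factor related to TGF-beta) at 10 ng/mL for 4 days, and 6 of material given ciliary neurotrophic factor (CNTF, a cytokine of the interleukin-6 family that activates STAT3) at the same concentration and for the same time. The other 6 were labelled as controls, with no time stated, and whether they match the treated material in time is unknown. The labels give neither the BMP family member, nor the age, strain, cell type or culture, and an entry shared by all arrays ("14 NT") was not interpreted. Arrays carry a number from 1 to 6 within each group, and nothing says that arrays of a group came from separate animals or cultures, so the p-values rest on a spread that may in part be technical.

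Transmitter receptors are of 2 kinds. Ionotropic receptors are channels assembled from several subunits, so that the subunits present set ion selectivity, kinetics and drug sensitivity, and metabotropic receptors are single proteins or dimers that act through G proteins. In the spinal cord, glutamate acting on AMPA, NMDA and kainate receptors carries most fast excitation, while GABA and glycine carry fast inhibition, and descending serotonin and noradrenaline fibres modulate both. Astrocytes and cells of the oligodendrocyte lineage also express AMPA, GABA-A, metabotropic glutamate, adrenergic and purine receptors.

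The deposited values were linear intensities. Levels are given here as log2(intensity + 116.655), where the constant is the 20th percentile of the table, and a difference between group means on this scale is called a log2 difference. Folds are ratios on the same scale and understate the change of dim genes. Levels of different probe sets are not comparable with each other. The table's median level was 9.75. Of the 107 members, 26 had a mean at or above it in some group and 81 lay below it in every group. A difference was called at a Benjamini-Hochberg adjusted p under 0.05 over all 31042 probe sets (limma, all 18 arrays in 1 fit). Because arrays of the same number deviated from their group means together, a fit with the number as a block was also made, and its result is given wherever it changed the call of a member, and as counts for the gene lists. Calls described as lost when arrays or settings changed were lost in fits without the block. Such losses were not examined with it.

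With BMP, 7 of the 107 members were higher than in controls (6.54%) and 4 were lower (3.74%), where 3.44% of all probe sets were called higher and 2.57% lower (4.21% and 3.02% of the 14217 named genes, each read from its brightest probe set). The higher members were Gria1, Grin2b, Glra2, Chrna3, Chrm4, Htr3a and Adra2a, and the lower ones Gria2, Grik3, Grik5 and Glrb. The median log2 difference was 0.02 over the members and 0.01 over all probe sets. With the number as a block, 10 members were higher and 8 lower (9.35% and 7.48%), against 9.1% and 7.58% of all probe sets. After quantile normalization of the arrays, 6 members were higher and 6 lower.

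With CNTF, 6 members were higher than in controls (5.61%) and 3 lower (2.8%), where 1.58% of all probe sets were called higher and 0.738% lower (2.04% and 0.823% of named genes). Chrm4, Htr3a, Adra1d, Adra2a, Drd1 and P2rx4 were higher, and Grin2c, Gabra4 and Gabrb1 lower. The median was -0.09 over the members and -0.01 over all probe sets. The blocked fit called 6 higher and 8 lower, against 4.19% and 3.38% of all probe sets. Chrm4, Htr3a and Adra2a were called against control with BMP and with CNTF, and these comparisons share their 6 control arrays.

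Between the additions, 9 members were higher with BMP than with CNTF (8.41%) and 3 lower (2.8%), where 3.24% of all probe sets were called higher and 2.99% lower (3.74% and 3.76% of named genes). Gria1, Grin2b, Grin2c, Grin3a, Gabra4, Gabrb1, Gabrb2, Glra2 and Chrna3 were higher, and Grm5, Glrb and Drd1 lower. The median was 0.05 over the members and 0.01 over all probe sets. With the block, 15 were higher and 7 lower, against 8.17% and 6.93% of all probe sets. Altogether 20 members were called in some comparison and 87 in none. Of the 20, 15 lay at or above the table's median in some group.

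**Figure D1:**
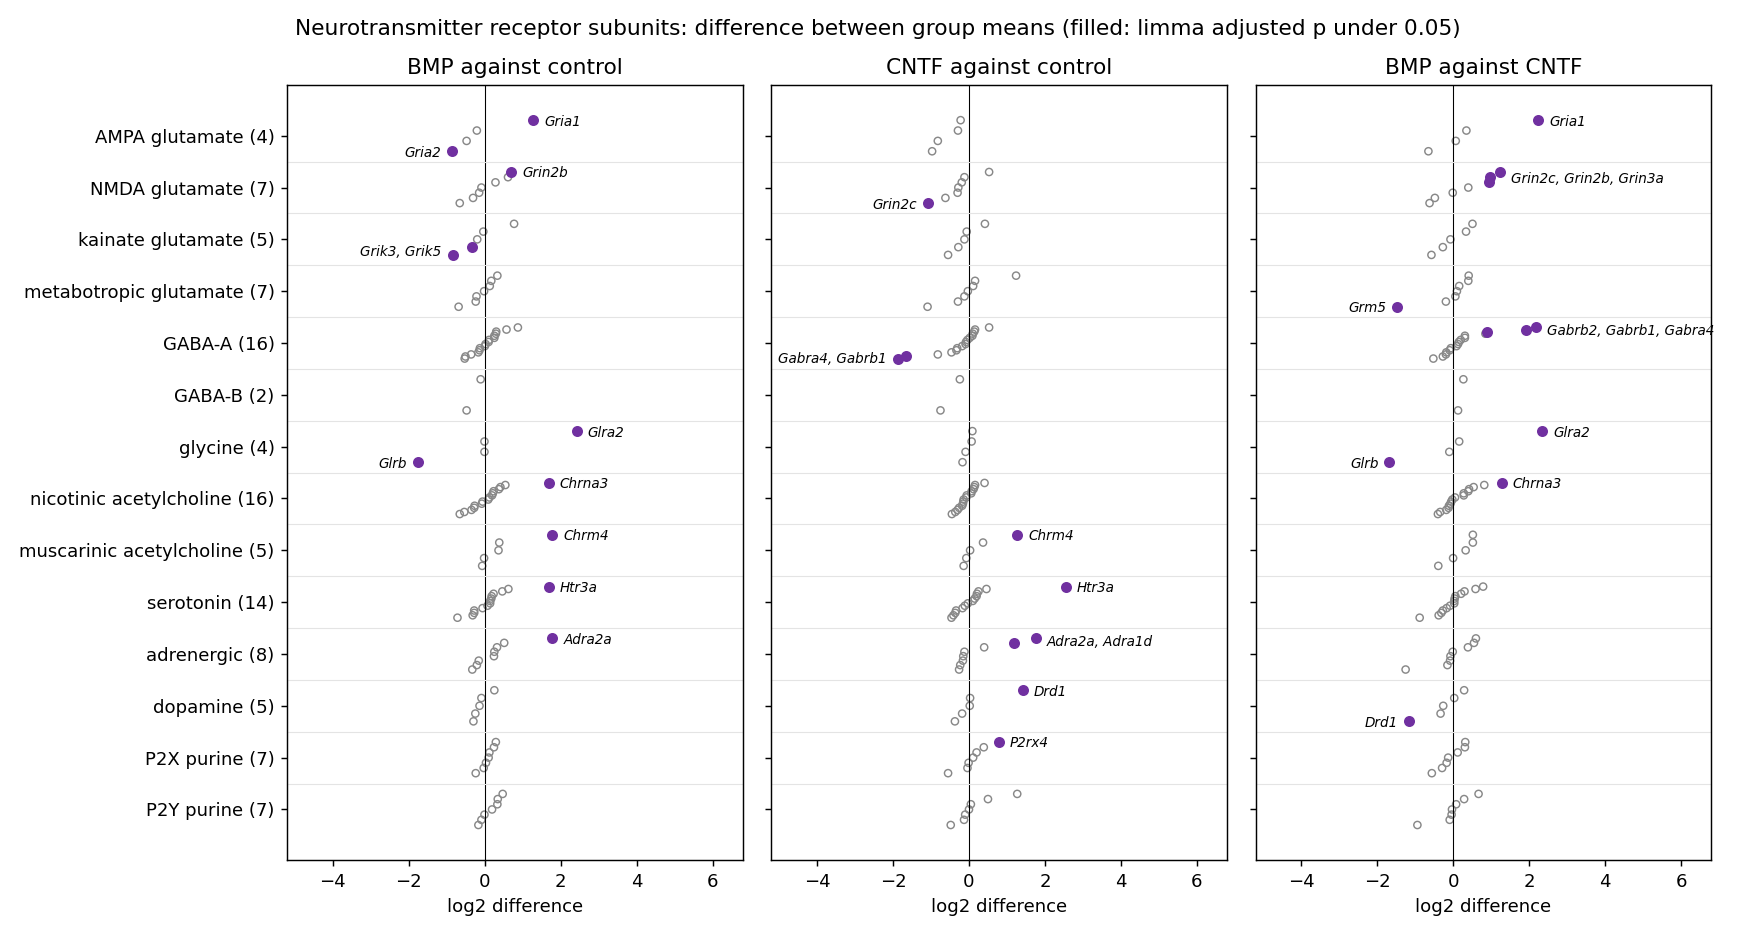
Log2 difference between group means (x axis) for each of the 107 members, by transmitter class with its number of members (y axis), in the 3 comparisons. Filled, named points passed an adjusted p of 0.05 and open points did not. The filled points lie on both sides of 0 within the AMPA and glycine classes with BMP, while the GABA-A class has filled points only below 0 with CNTF.

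Markers of cell types moved between the groups as well. Of 7 oligodendrocyte precursor markers, 6 were lower with BMP than in controls, and their summed intensity was 30277 to 101396 with BMP, 83420 to 129165 with CNTF and 98769 to 142811 in controls. Of 9 oligodendrocyte markers, 5 were lower with BMP, with sums of 15214 to 91084 for BMP, 84828 to 282733 for CNTF and 62704 to 222352 for controls. Of 14 neuronal markers, Nefl and Stmn2 were higher with BMP and Elavl3 was lower. The summed ranges of the 14 overlapped (93478 to 153760 with BMP, 122511 to 149585 with CNTF and 115719 to 129989 in controls). Such sums weigh bright markers most, and the brightest, Map2 and Gap43, differed by -0.06 and -0.37 with BMP against control. The median log2 difference over the 14 was 0.57 with BMP and 0.10 with CNTF, against 0.01 and -0.01 over all probe sets. The astrocyte markers, 10 in number, held 1 higher gene with BMP (Aqp4) and 1 with CNTF (Gfap), and the fibroblast and smooth muscle markers, 9 in number, 1 with BMP (Col1a2). The summed ranges of the astrocyte markers were 166969 to 284696 with BMP, 223185 to 342163 with CNTF and 160742 to 243904 in controls, and those of the fibroblast and smooth muscle markers 13572 to 78422, 3598.8 to 25979 and 4489.8 to 13420 in the same order. All 10 microglial markers, all 6 endothelial and all 4 Schwann cell markers lay below the table's median in every group, and of these Tek, an endothelial marker, was higher with BMP (0.95 ± 0.26, adjusted p = 0.036) and Pmp2, a Schwann cell marker, with CNTF (1.29 ± 0.30, adjusted p = 0.0266). With the number as a block, the neuronal list had 7 higher and 2 lower with BMP, against 3 and 1 with CNTF. The block gave 5 fibroblast and smooth muscle markers higher with BMP and 1 with CNTF, and 2 astrocyte markers higher with BMP, against 2 higher and 1 lower with CNTF. Of the oligodendrocyte markers it called 6 lower with BMP and 2 higher with CNTF, and of the precursor markers 6 lower with BMP and 1 lower with CNTF. The part of these shifts in the receptor results was not tested, and in bulk RNA fewer cells of a type and less RNA per cell cannot be told apart.

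Of 4 AMPA receptor subunits, Gria1 rose and Gria2 fell with BMP. AMPA receptors are tetramers that carry fast excitatory currents, and the GluA2 subunit encoded by Gria2 makes the channel impermeable to calcium. Gria1, which encodes GluA1, had levels of 9.15, 9.88 and 11.34 (lowest, median, highest array) with BMP, 7.10, 7.85 and 8.68 with CNTF and 8.44, 8.74 and 9.23 in controls. Every BMP array lay above every CNTF array, while the lowest BMP array overlapped the controls, and BMP arrays 1 to 3 (10.20 to 11.34) were above BMP arrays 4 to 6 (9.15 to 9.55). The difference of BMP against CNTF was 2.24 ± 0.35 (SE), or 4.71-fold (limma adjusted p = 0.000594), in 6 of 6 same-numbered pairs. Against control it was 1.27 ± 0.35 with BMP (adjusted p = 0.0347, 5 of 6 pairs) and -0.97 ± 0.35 with CNTF, which was not called (adjusted p = 0.209). The call against control was lost without any 1 of BMP arrays 1, 2 and 3 or control arrays 1, 2, 3 and 6 (adjusted p = 0.052 to 0.0924), and with a constant of 16 (adjusted p = 0.094).

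Gria2 had 12.85, 14.11 and 14.25 with BMP, 14.25, 14.57 and 14.75 with CNTF and 14.37, 14.73 and 15.18 in controls. All 6 BMP arrays lay below all 6 controls, and BMP array 1 was far the lowest. The mean was 13.88 ± 0.54 with BMP and 14.75 ± 0.31 in controls (SD, n = 6 each), a difference of -0.87 ± 0.20 (adjusted p = 0.0124), and a second probe set gave -0.94 ± 0.24 (adjusted p = 0.0221). Without all 3 arrays of number 2 the call was lost (adjusted p = 0.0932). With CNTF the difference was -0.22 ± 0.20 (adjusted p = 0.81), and BMP against CNTF was -0.65 ± 0.20, called in the blocked fit alone (adjusted p = 0.0384, against 0.0605 without the block). For BMP against CNTF the second probe set gave -0.63, not called with the block (adjusted p = 0.0501).

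Gria3 and Gria4, the remaining subunits, were not called in any comparison without the block. Gria3 averaged 11.46 ± 0.73 with BMP, 11.11 ± 0.68 with CNTF and 11.93 ± 0.53 in controls (SD, n = 6 each). In the blocked fit it was lower than in controls with BMP (-0.48, adjusted p = 0.0233) and with CNTF (-0.82, adjusted p = 0.00132). A second Gria3 probe set gave -0.30 with BMP, not called in that fit (adjusted p = 0.0858), and -0.73 with CNTF (adjusted p = 0.00102). Gria4 averaged 10.31 ± 0.55 with BMP, 10.24 ± 0.46 with CNTF and 10.52 ± 0.27 in controls, with overlapping groups in each comparison. Beside these AMPA values, the 14 neuronal markers had a median log2 difference of 0.57 with BMP against control, where all probe sets had 0.01. Among the called ones, Nefl was higher by 0.95 ± 0.15 (adjusted p = 0.00125) and Elavl3 lower by -0.50 ± 0.13 (adjusted p = 0.0222). The precursor marker Pdgfra was lower by -1.80 ± 0.31 (adjusted p = 0.00162), and the part of these markers was not tested.

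Of 7 NMDA receptor subunits, Grin2b, Grin2c and Grin3a were called. NMDA receptors are calcium-permeable coincidence detectors in which the obligatory GluN1 subunit, from Grin1, pairs with GluN2 or GluN3 subunits. Grin1 itself averaged 9.45 ± 0.60 with BMP, 9.46 ± 0.29 with CNTF and 9.76 ± 0.21 in controls (SD, n = 6 each), with no call in any comparison. Grin2b, encoding the GluN2B subunit typical of immature receptors, had 9.30, 9.48 and 10.34 with BMP, 8.02, 8.73 and 8.88 with CNTF and 8.54, 8.95 and 9.10 in controls. Its BMP arrays lay above all CNTF and all control arrays, and its mean lay below the table's median in every group. It was higher with BMP by 0.98 ± 0.19 against CNTF (adjusted p = 0.003) and by 0.70 ± 0.19 against control (adjusted p = 0.0297). The call against control was lost without BMP array 3 or control array 1, 3 or 6 (adjusted p = 0.0506 to 0.0695) and after quantile normalization (adjusted p = 0.0725). A second Grin2b probe set gave 0.48 ± 0.25 against control and 0.23 ± 0.25 against CNTF, neither of them called.

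Grin2c, encoding GluN2C, had 9.43, 10.68 and 11.00 with BMP, 9.20, 9.62 and 9.79 with CNTF and 10.04, 10.77 and 11.15 in controls. All CNTF arrays lay below all controls, and 1 BMP array, number 1, lay within the CNTF range. It fell with CNTF by -1.09 ± 0.25 (2.13-fold, adjusted p = 0.0201) and was higher with BMP than with CNTF by 0.94 ± 0.25 (adjusted p = 0.0266), each in 6 of 6 pairs. The call with CNTF was lost without control array 2 or 6 (adjusted p = 0.052 and 0.0525), and that of BMP against CNTF without CNTF array 1 or 4 or BMP array 2, 3 or 5 (adjusted p = 0.0549 to 0.0701). BMP against control was -0.15 ± 0.25. Grin3a, encoding the glycine-binding GluN3A, averaged 10.51 ± 0.62 with BMP, 9.27 ± 0.56 with CNTF and 9.89 ± 0.38 in controls. It was 1.23 ± 0.28 higher with BMP than with CNTF (adjusted p = 0.0114), while neither addition was called against control (0.61 with BMP, adjusted p = 0.247, and -0.62 with CNTF, adjusted p = 0.4). This call was lost without all arrays of number 4 or of number 5 (adjusted p = 0.0583 to 0.0679).

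**Figure D2:**
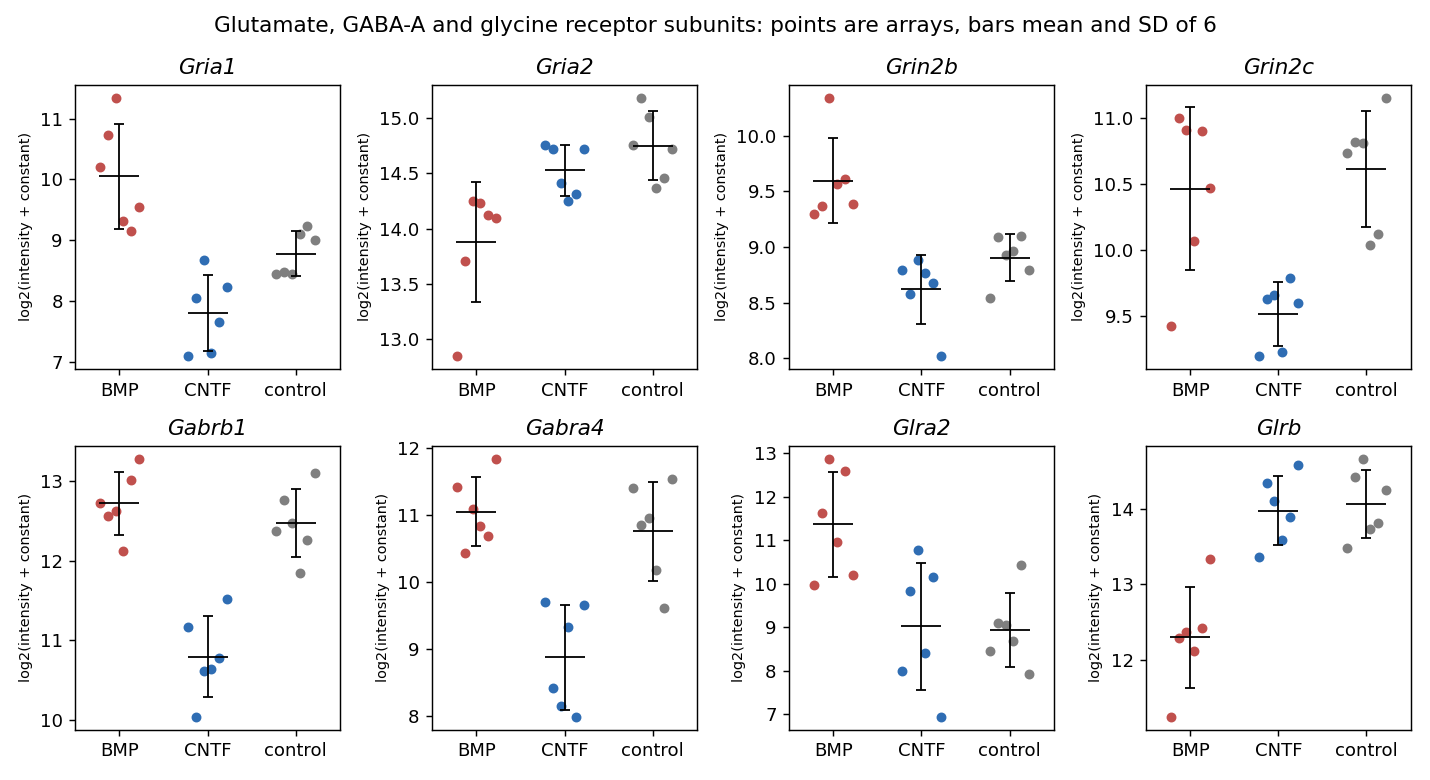
Level on the log2(intensity + constant) scale (y axes, separate for each gene) in each array of BMP, CNTF and control (x axis) for 8 ionotropic receptor subunits. Points are arrays in the order of their numbers 1 to 6, the horizontal bar is the mean and the vertical bar the SD of 6 arrays. The CNTF arrays of Gabrb1 lie below all the other arrays, and the BMP arrays of Glrb lie below all the others.

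Among kainate receptor subunits, which form channels that tune excitability on both sides of the synapse, 2 of 5 fell with BMP and 0 were called with CNTF (limma, with 1 lower at an unadjusted p under 0.05). Grik5, encoding the high-affinity GluK5 subunit, had 11.40, 11.46 and 11.78 with BMP, 11.61, 11.78 and 12.02 with CNTF and 11.57, 11.87 and 12.01 in controls. Only BMP array 5 reached into the control range. The difference from controls was -0.33 ± 0.10 (adjusted p = 0.0493), and the call was lost without any 1 of 15 of the 18 arrays, all but BMP array 5, CNTF array 1 and control array 6 (adjusted p = 0.0512 to 0.113). In the blocked fit alone Grik5 was also lower with BMP than with CNTF (-0.27, adjusted p = 0.0473, against 0.114 without the block). The call against control missed the threshold with no intensity trend (adjusted p = 0.0637) and with the compared groups alone (adjusted p = 0.0756). Grik3, encoding GluK3, averaged 7.45 ± 0.50 with BMP, 8.01 ± 0.45 with CNTF and 8.29 ± 0.22 in controls, below the table's median. Its difference of BMP against control was -0.85 ± 0.23 (adjusted p = 0.0325), lost without any 1 of BMP arrays 1, 3, 5 and 6 or control arrays 1, 2, 3, 4 and 6 (adjusted p = 0.0519 to 0.0823). Grik2, encoding GluK2, was not called without the block. With the block it was lower with CNTF than in controls (-0.55, adjusted p = 0.0194) and higher with BMP than with CNTF (0.51, adjusted p = 0.0158), each in 6 of 6 pairs. Oligodendrocyte lineage markers were lower with BMP in the same arrays as Grik3 and Grik5 (Sox10 by -2.13 ± 0.43, adjusted p = 0.00498), and their part was not tested.

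Of 7 metabotropic glutamate receptors, Grm5 was called, and in BMP against CNTF alone. It encodes mGluR5, a receptor coupled to phospholipase C that is found on neurons and young astrocytes. Its levels were 9.24, 10.30 and 10.91 with BMP, 11.04, 11.68 and 12.42 with CNTF and 8.84, 10.34 and 11.88 in controls. Every CNTF array was above every BMP array, while the controls spread over the ranges of both. The difference of BMP against CNTF was -1.48 ± 0.40 (2.79-fold, adjusted p = 0.0322), lost without BMP array 1, 3 or 5 or CNTF array 2, 3 or 6 (adjusted p = 0.0555 to 0.0781). A second probe set gave -1.12 ± 0.41 (adjusted p = 0.12, and 0.0465 with the block). CNTF against control was 1.24 ± 0.40 (adjusted p = 0.145), higher in 4 of 6 pairs. Grm3, which encodes mGluR3, an inhibitory receptor of glia and neurons, averaged 9.97 ± 0.65 with BMP, 9.57 ± 0.59 with CNTF and 10.66 ± 0.38 in controls. It was below control with CNTF by -1.09 ± 0.29 in 6 of 6 pairs, called in the blocked fit (adjusted p = 0.0237) but not without the block (adjusted p = 0.0577).

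Of 16 GABA-A receptor subunits, 2 fell with CNTF and 0 were called with BMP against control (limma, with 2 higher at an unadjusted p under 0.05). These receptors are pentameric chloride channels, usually of alpha, beta and gamma subunits. Gabrb1, encoding the beta1 subunit, had 12.12, 12.67 and 13.28 with BMP, 10.04, 10.71 and 11.52 with CNTF and 11.85, 12.42 and 13.10 in controls. All 6 CNTF arrays lay below all 12 others. It was lower with CNTF than in controls by -1.67 ± 0.24 (3.19-fold, adjusted p = 0.000333), and higher with BMP than with CNTF by 1.92 ± 0.24 (3.8-fold, adjusted p = 5.74e-05). These calls held without any 1 array and without all arrays of any 1 number. BMP against control was 0.25 ± 0.24 (adjusted p = 0.655).

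Gabra4, encoding the alpha4 subunit of receptors outside synapses, had 10.43, 10.96 and 11.84 with BMP, 7.99, 8.88 and 9.70 with CNTF and 9.61, 10.91 and 11.53 in controls. The CNTF arrays lay below all BMP arrays, and only control array 5 lay within the CNTF range. It fell with CNTF by -1.88 ± 0.36 (3.68-fold, adjusted p = 0.00567) and was 2.18 ± 0.36 higher with BMP than with CNTF (adjusted p = 0.00103), each in 6 of 6 pairs. The call with CNTF was lost without all arrays of number 3 (adjusted p = 0.054). With CNTF against control, the astrocyte marker Gfap was higher by 3.96 ± 0.78 (adjusted p = 0.00708), beside Pmp2 and the list counts given above. The 10 astrocyte markers had a median log2 difference of -0.04 there, and Aldh1l1 was lower in the blocked fit alone (-1.40, adjusted p = 0.0301). The part of these markers in the GABA-A values was not tested.

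Gabrb1 and Gabra4 are neighbours on rat chromosome 14, on opposite strands, with no protein-coding gene between them in RefSeq (assembly GRCr8). Gabra2 and Gabrg1 follow on the same chromosome, with 1 protein-coding gene between Gabra4 and Gabra2. The log2 differences of these 2 neighbours with CNTF were as follows, and whether they differ from those of Gabrb1 and Gabra4 was not tested. Gabra2, encoding the alpha2 subunit, was -0.82 ± 0.29 with CNTF (adjusted p = 0.203, but 0.0187 with the block), and Gabrg1, encoding gamma1, -0.33 ± 0.36 (adjusted p = 0.858). Gabrg1 was lower with BMP in the blocked fit alone (-0.53, adjusted p = 0.0337). Because Gabrb1 and Gabra4 moved together in these arrays, the 250 bases upstream of each RefSeq gene start are printed, 5′ to 3′ on the strand of the gene. They come from GRCr8, Gabrb1 from chr14:36902894-36903143 on the minus strand and Gabra4 from chr14:36944497-36944746 on the plus strand.
Gabrb1: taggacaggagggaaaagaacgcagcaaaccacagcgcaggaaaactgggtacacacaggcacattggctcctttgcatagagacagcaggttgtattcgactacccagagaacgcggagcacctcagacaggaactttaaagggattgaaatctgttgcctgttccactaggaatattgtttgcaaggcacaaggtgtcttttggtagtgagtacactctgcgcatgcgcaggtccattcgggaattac
Gabra4: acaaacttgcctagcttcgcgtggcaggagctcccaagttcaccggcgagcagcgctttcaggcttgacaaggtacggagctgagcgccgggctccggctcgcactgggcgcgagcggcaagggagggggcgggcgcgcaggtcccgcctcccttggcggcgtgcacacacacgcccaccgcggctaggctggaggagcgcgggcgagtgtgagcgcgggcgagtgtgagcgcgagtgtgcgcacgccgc
The windows differ in base composition, with a GC content of 49.2% for Gabrb1 and 71.6% for Gabra4, where the median of all 27457 promoters was 52.0%. In these windows 3 motifs were searched on both strands: TTCNNNGAA, the form bound by STAT factors, and GGCGCC and GTCTAGAC, forms bound by SMAD factors. No match was found in either window, which says nothing about binding elsewhere.

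Gabrb2, encoding the beta2 subunit, differed in BMP against CNTF. It averaged 10.15 ± 0.38 with BMP, 9.26 ± 0.50 with CNTF and 9.58 ± 0.48 in controls, and the BMP against CNTF difference was 0.88 ± 0.25 (adjusted p = 0.0391). The call was lost without BMP array 2, 3, 5 or 6 or CNTF array 2, 3, 4 or 5 (adjusted p = 0.0654 to 0.0932), and a dimmer second probe set gave 0.00 ± 0.27. With the block, BMP was also higher than control (0.57, adjusted p = 0.0448). Its upstream window, from GRCr8 chr10:27439543-27439792 on the plus strand, is shown because it held the 1 match to TTCNNNGAA among the called members with a promoter, in capitals here and 37 bases before the gene start.
Gabrb2: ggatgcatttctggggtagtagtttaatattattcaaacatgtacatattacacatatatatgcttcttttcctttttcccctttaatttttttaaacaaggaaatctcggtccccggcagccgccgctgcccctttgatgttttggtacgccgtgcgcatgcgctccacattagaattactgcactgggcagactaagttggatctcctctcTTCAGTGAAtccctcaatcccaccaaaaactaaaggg
The motif occurred in 7.52% of all promoters of this length and in 7 of 81 members with a promoter (8.64%). Gabra5, encoding alpha5, was higher with BMP than in controls (0.87, adjusted p = 0.0194) and than with CNTF (0.85, adjusted p = 0.0241) in the blocked fit alone.

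The SMAD-type motif GGCGCC was present upstream of 2 called members, Grik3 and Grin3a, and these windows are printed with the motif in capitals. Grik3 was read from GRCr8 chr5:143052192-143052441 on the plus strand, with matches 60 and 14 bases before the gene start, and Grin3a from chr5:69001559-69001808 on the minus strand, with a match 161 bases before it.
Grik3: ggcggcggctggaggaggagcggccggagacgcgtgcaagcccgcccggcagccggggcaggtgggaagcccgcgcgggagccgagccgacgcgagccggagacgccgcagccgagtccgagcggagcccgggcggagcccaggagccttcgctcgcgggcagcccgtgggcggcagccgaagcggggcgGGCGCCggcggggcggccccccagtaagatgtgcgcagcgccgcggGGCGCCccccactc
Grin3a: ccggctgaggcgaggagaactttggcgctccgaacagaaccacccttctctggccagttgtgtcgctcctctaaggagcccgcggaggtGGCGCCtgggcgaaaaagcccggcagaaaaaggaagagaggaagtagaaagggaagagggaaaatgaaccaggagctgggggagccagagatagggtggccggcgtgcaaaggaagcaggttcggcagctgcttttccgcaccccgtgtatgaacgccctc
The motif was in 9.24% of all promoters and in 13 of 81 members (16%). The members' promoters had a median GC content of 59.6%, above that of all promoters, and the motif is made of G and C alone. GTCTAGAC was in 0.186% of all promoters and in 0 of 81 members. Grik3 was lower with BMP than in controls and Grin3a was not called against control, as given above.

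The metabotropic GABA-B receptor is a dimer of the proteins from Gabbr1 and Gabbr2. Gabbr1 had 12.57, 13.24 and 14.15 with BMP, 12.46, 13.11 and 13.88 with CNTF and 12.73, 13.23 and 14.13 in controls. The 3 groups covered nearly the same range, and its differences of -0.11 ± 0.28 with BMP and -0.24 ± 0.28 with CNTF were not called. Gabbr2 averaged 10.94 ± 0.55 with BMP, 10.67 ± 0.61 with CNTF and 11.42 ± 0.85 in controls, and was lower with CNTF in the blocked fit alone (-0.75, adjusted p = 0.0229).

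Of 4 glycine receptor subunits, Glra2 rose and Glrb fell with BMP, and Glra1 and Glra3 were not called. The receptor is a chloride channel in which an alpha subunit binds glycine and the beta subunit ties the receptor to the scaffold protein gephyrin, and the alpha2 subunit from Glra2 is the form of immature spinal cord. Glrb, encoding the beta subunit, had 11.24, 12.32 and 13.34 with BMP, 13.36, 14.00 and 14.58 with CNTF and 13.48, 14.04 and 14.67 in controls. All 6 BMP arrays lay below all 12 others. The difference was -1.77 ± 0.28 against control (3.41-fold, adjusted p = 0.00109) and -1.68 ± 0.28 against CNTF (adjusted p = 0.00104), each in 6 of 6 pairs, and both calls held without any 1 array and without any 1 number. A second probe set gave -1.77 ± 0.35 and -1.80 ± 0.35 (adjusted p = 0.00483 and 0.00348). The remaining probe set, with means of 7.16 to 7.23 in the 3 groups, gave -0.08 ± 0.19 against control. CNTF against control was -0.09 ± 0.28 (adjusted p = 0.969). Glra1 and Glra3, encoding the alpha1 and alpha3 subunits, lay below the table's median in every group, and each differed by -0.01 with BMP against control (adjusted p = 0.987 and 0.99).

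Glra2 had 9.96, 11.29 and 12.88 with BMP, 6.94, 9.12 and 10.78 with CNTF and 7.93, 8.87 and 10.43 in controls. The groups overlapped in their ranges, but the BMP array was higher than the control and the CNTF array of its own number in 6 of 6 cases. BMP was higher than control by 2.42 ± 0.62 (5.36-fold, adjusted p = 0.0234) and higher than CNTF by 2.35 ± 0.62 (adjusted p = 0.0274), and with the number as a block the adjusted p was 3.6e-05 and 3.63e-05. Without the block, the call against control was lost without BMP array 2, 3 or 5 or control array 6 (adjusted p = 0.0525 to 0.0626) and with a constant of 16 (adjusted p = 0.0604). That against CNTF was lost without CNTF array 1, 4 or 6 or BMP array 2, 3 or 5 (adjusted p = 0.0562 to 0.0733), and with the compared groups alone (adjusted p = 0.0563). A second probe set gave 1.56 ± 0.41 and 1.39 ± 0.41 (adjusted p = 0.0268 and 0.047). The oligodendrocyte markers that were lower in the same comparison included Cnp (-1.35 ± 0.22, adjusted p = 0.00137), and of the neuronal markers Stmn2 was higher (1.17 ± 0.34, adjusted p = 0.048) and Elavl3 lower. Their part in the glycine receptor values was not tested.

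The upstream windows of Glra2 and Glrb, the called glycine receptor members, are printed because their levels moved apart in the same arrays. Glra2 is from GRCr8 chrX:32651937-32652186 on the plus strand and Glrb from chr2:168505615-168505864 on the minus strand.
Glra2: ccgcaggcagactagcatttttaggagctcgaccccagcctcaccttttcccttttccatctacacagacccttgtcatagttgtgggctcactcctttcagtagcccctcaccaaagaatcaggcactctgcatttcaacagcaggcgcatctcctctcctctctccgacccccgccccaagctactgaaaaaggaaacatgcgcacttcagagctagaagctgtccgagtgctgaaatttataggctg
Glrb: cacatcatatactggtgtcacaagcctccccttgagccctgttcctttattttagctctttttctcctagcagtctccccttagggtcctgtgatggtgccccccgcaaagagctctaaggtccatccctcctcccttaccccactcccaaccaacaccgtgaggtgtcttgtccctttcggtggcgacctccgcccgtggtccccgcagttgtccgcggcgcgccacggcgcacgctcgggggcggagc
GC content was 52.4% for Glra2 and 61.2% for Glrb, and neither window held a match to any of the 3 motifs.

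**Figure D3:**
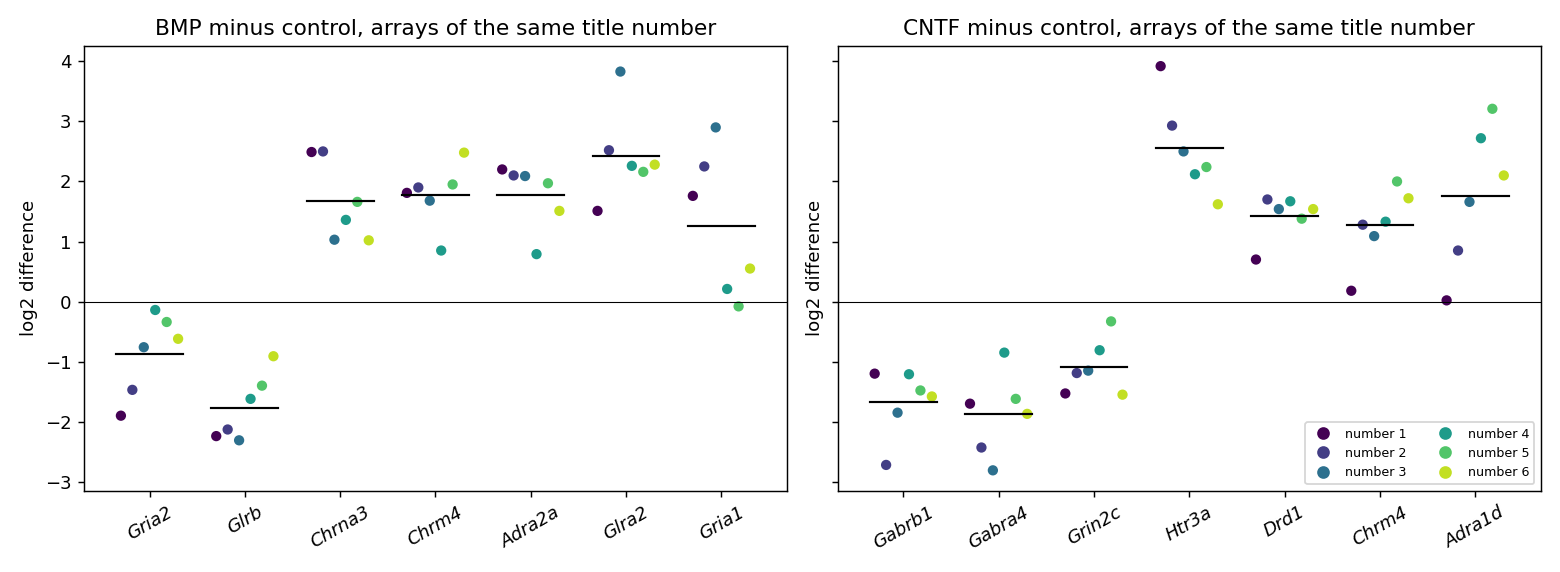
Log2 difference between arrays of the same number (y axis), BMP minus control on the left and CNTF minus control on the right, for 7 called members each (x axis). Points are the 6 numbers, coloured alike in both panels, and the bar is the mean. For Gria1, numbers 1 to 3 lie above numbers 4 to 6, of which the lowest is at -0.08, while Glra2 lies above 0 and Glrb below 0 for all 6 numbers.

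Of 16 nicotinic acetylcholine receptor subunits, which form cation channels, all lay below the table's median in every group and 1 was called. Chrna3, encoding the alpha3 subunit of autonomic ganglia, had 7.99, 9.28 and 10.09 with BMP, 6.99, 8.07 and 8.52 with CNTF and 6.97, 7.41 and 8.70 in controls. BMP arrays 1 to 4 were above all CNTF and control arrays, and control array 3 was the highest control by more than the range of the others. It rose with BMP by 1.68 ± 0.36 (3.21-fold, adjusted p = 0.00822), a call lost without all arrays of number 2 (adjusted p = 0.0603), and was 1.28 ± 0.36 higher than with CNTF (adjusted p = 0.041). That last call was lost without any 1 of 9 arrays (BMP 1, 2 and 3, CNTF 2, 3, 4, 5 and 6, and control 2, adjusted p = 0.0511 to 0.109), with a constant of 16 (0.0996), after quantile normalization (0.0546) and with the compared groups alone (0.0598). Chrna7, encoding the alpha7 subunit, averaged 7.83 ± 0.66 with BMP, 8.17 ± 0.23 with CNTF and 8.10 ± 0.63 in controls. Chrnb1, the muscle-type beta1 subunit, had 9.43, 9.69 and 10.12 with BMP, 9.18, 9.48 and 9.59 with CNTF and 9.24, 9.59 and 10.00 in controls, with overlapping groups. Neither was called in any comparison. In the blocked fit alone, Chrnd was lower with BMP than in controls (-0.66, adjusted p = 0.0489) and Chrna4 higher with BMP than with CNTF (0.82, adjusted p = 0.0055).

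Of 5 muscarinic receptors, Chrm4 was higher with both additions. It encodes the M4 receptor, which inhibits adenylyl cyclase. It had 8.67, 10.07 and 10.41 with BMP, 8.62, 9.38 and 9.98 with CNTF and 7.11, 8.21 and 8.52 in controls. All 12 treated arrays lay above all 6 controls. BMP was higher than control by 1.78 ± 0.31 (3.44-fold, adjusted p = 0.00202), and this held without any 1 array or number. CNTF was higher by 1.27 ± 0.31 (2.4-fold, adjusted p = 0.0354), which was lost without CNTF array 2, 3, 4 or 5 or control array 4, 5 or 6 (adjusted p = 0.0531 to 0.0974). BMP against CNTF was 0.52 ± 0.31 and was not called (adjusted p = 0.449). Chrm3, encoding the phospholipase-coupled M3 receptor, had 9.79, 10.45 and 11.75 with BMP, 9.40, 9.90 and 11.11 with CNTF and 9.40, 9.97 and 10.98 in controls. The groups overlapped widely, and it was higher with BMP than with CNTF in the blocked fit alone (0.52, adjusted p = 0.0194).

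Of 14 serotonin receptors, Htr3a was the one called, again with both additions. It encodes the channel-forming subunit of the 5-HT3 receptor, the ionotropic member of an otherwise metabotropic family. Its levels were 9.37, 10.85 and 11.76 with BMP, 10.13, 11.56 and 13.31 with CNTF and 8.51, 9.05 and 9.72 in controls. All CNTF arrays lay above all controls, and of the BMP arrays only number 4 overlapped them. CNTF was higher than control by 2.56 ± 0.48 (5.88-fold, adjusted p = 0.00479), which held without any 1 array or number. BMP was higher by 1.68 ± 0.48 (3.2-fold, adjusted p = 0.0416), a call lost without any 1 of 8 arrays (BMP 1, 2 and 3 and control 1, 2, 4, 5 and 6, adjusted p = 0.0561 to 0.103) and with no intensity trend (adjusted p = 0.052). Arrays 1 to 3 were higher than arrays 4 to 6 in each of the 3 groups, and in the blocked fit BMP was below CNTF (-0.88, adjusted p = 0.0191). The remaining 13 serotonin receptors lay below the table's median in every group. Htr2a averaged 7.68 ± 0.51 with BMP, 7.64 ± 0.58 with CNTF and 8.0 ± 0.45 in controls, with no call. In the blocked fit alone, Htr5b was lower with BMP than in controls (-0.72, adjusted p = 0.00492), and Htr2c higher (0.62, adjusted p = 0.0133) and higher than with CNTF (0.79, adjusted p = 0.00282). A second Htr2c probe set did not show this, with means of 8.05 with BMP, 8.10 with CNTF and 8.08 in controls.

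**Figure D4:**
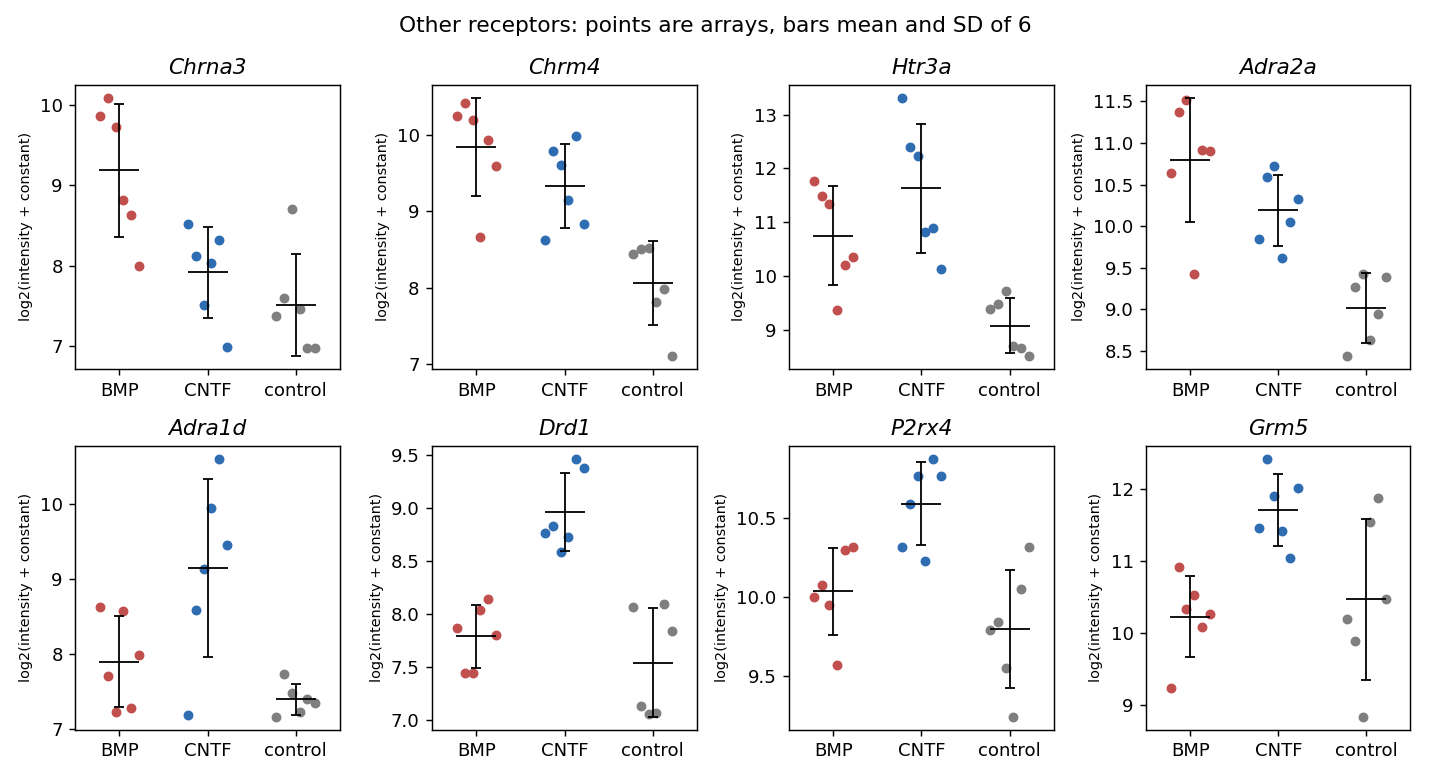
Level on the log2(intensity + constant) scale (y axes, separate for each gene) in each array of BMP, CNTF and control (x axis) for 8 receptors of acetylcholine, serotonin, noradrenaline, dopamine, ATP and glutamate. Points are arrays in the order of their numbers 1 to 6, with the mean and SD of 6 arrays. All BMP and CNTF arrays of Chrm4 lie above its control arrays, and the CNTF arrays of Drd1 lie above all the others.

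Of 8 adrenergic receptors, Adra2a was higher with both additions and Adra1d with CNTF. Adra2a encodes the alpha2A receptor, an inhibitory receptor for noradrenaline that carries the spinal action of clonidine. It had 9.42, 10.91 and 11.52 with BMP, 9.62, 10.19 and 10.72 with CNTF and 8.44, 9.10 and 9.43 in controls. BMP array 4 and the highest control, array 3, differed by 0.01, and all other treated arrays were above all controls. BMP was higher than control by 1.78 ± 0.29 (3.43-fold, adjusted p = 0.00135), which held without any 1 array or number. A second probe set gave 0.96 ± 0.25 (adjusted p = 0.026). CNTF was higher by 1.18 ± 0.29 (adjusted p = 0.0377), lost without any 1 of 8 arrays (CNTF 2, 3, 5 and 6 and control 1, 2, 4 and 5, adjusted p = 0.0564 to 0.101), and the second probe set gave 0.57 ± 0.25 (adjusted p = 0.372). In the blocked fit alone BMP was above CNTF (0.60, adjusted p = 0.0156).

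Adra1d, encoding the alpha1D receptor coupled to phospholipase C, averaged 7.90 ± 0.61 with BMP, 9.15 ± 1.19 with CNTF and 7.39 ± 0.20 in controls, below the table's median in each. CNTF array 1, at 7.18, lay within the controls and the other 5 CNTF arrays above them. CNTF was higher than control by 1.76 ± 0.41 (3.39-fold, adjusted p = 0.0245), lost without CNTF array 3, 4, 5 or 6 or control array 1 or 4 (adjusted p = 0.0505 to 0.0629). Adra1b averaged 8.88 ± 0.23 with BMP, 8.33 ± 0.57 with CNTF and 8.56 ± 0.20 in controls and was not called.

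Of 5 dopamine receptors, all below the table's median, Drd1 rose with CNTF. It encodes the D1 receptor, which stimulates adenylyl cyclase. It had 7.44, 7.83 and 8.14 with BMP, 8.59, 8.80 and 9.47 with CNTF and 7.05, 7.49 and 8.09 in controls. All CNTF arrays lay above all 12 others. CNTF was higher than control by 1.42 ± 0.23 (2.68-fold, adjusted p = 0.00124), and BMP was lower than CNTF by -1.17 ± 0.23 (adjusted p = 0.00333), and both held without any 1 array or number. A second probe set gave 0.94 ± 0.22 and -0.78 ± 0.22 (adjusted p = 0.0235 and 0.0365). Drd4, encoding the D4 receptor, had 7.71, 8.09 and 8.67 with BMP, 7.80, 8.53 and 8.72 with CNTF and 7.97, 8.38 and 8.92 in controls, with overlapping groups and no call.

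Of the receptors for ATP and related nucleotides, P2rx4 rose with CNTF and the other 6 P2X and all 7 P2Y members were not called (limma). P2rx4 encodes a cation channel known in the spinal cord for its role in microglia. It had 9.57, 10.04 and 10.32 with BMP, 10.23, 10.68 and 10.88 with CNTF and 9.24, 9.81 and 10.32 in controls. The CNTF range began just below the top of the controls, and the CNTF array was the highest with its number in 6 of 6 cases. The difference of CNTF against control was 0.79 ± 0.18 (1.73-fold, adjusted p = 0.0195), lost without CNTF array 3, 5 or 6 (adjusted p = 0.0508 to 0.0578). BMP against CNTF was -0.56 ± 0.18, called in the blocked fit alone (adjusted p = 0.00149). The 10 microglial markers lay below the table's median in every group, with summed intensities of 910.59 to 1266.5 with BMP, 921.39 to 1566.1 with CNTF and 879.14 to 1493.8 in controls. P2rx7, another microglial channel, averaged 8.76 ± 0.66 with BMP, 9.05 ± 0.52 with CNTF and 8.65 ± 0.42 in controls, and P2ry12, a marker of resting microglia, 7.62 ± 0.44, 7.54 ± 0.36 and 7.63 ± 0.77 in the same order. P2ry1, encoding an ADP receptor, had 8.59, 8.82 and 9.05 with BMP, 8.10, 8.58 and 8.92 with CNTF and 8.09, 8.34 and 9.06 in controls, with overlapping groups.

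A list of receptor scaffolds, auxiliary proteins and further related genes, such as Vsnl1, Ncald and Camk2d, had 54 measured of 61 listed. It held calls in both directions with BMP and in 1 with CNTF. With BMP, 4 of the 54 were higher than in controls (Cacng3, Kctd12, Vsnl1 and Camk2d) and 3 lower (Nlgn2, Nlgn3 and Ncald). Of all probe sets, 3.44% were called higher and 2.57% lower in that comparison. The median log2 difference was 0.05, against 0.01 over all probe sets. Kctd12, an auxiliary subunit of GABA-B receptors, averaged 13.26 with BMP and 11.04 in controls, a difference of 2.22 ± 0.40 (adjusted p = 0.00223). Nlgn2, the neuroligin of inhibitory synapses, averaged 10.36 with BMP and 11.20 in controls (-0.84 ± 0.20, adjusted p = 0.014), and Nlgn3 differed by -0.68 ± 0.15 (adjusted p = 0.00921). Gphn, encoding the gephyrin scaffold of glycine receptors, was not called, with 13.01 for BMP and 12.89 for controls (0.12 ± 0.13, adjusted p = 0.719). With CNTF, 0 of the 54 were higher and 1 was lower, the neuroligin Nlgn1 (-0.83 ± 0.18, adjusted p = 0.0143). The shares over all probe sets were 1.58% higher and 0.738% lower. Between the additions, Neto2, Grip2, Vsnl1 and Camk2d were higher with BMP and Nlgn2 lower, where 3.24% of all probe sets were higher and 2.99% lower. Neto2, an auxiliary protein of kainate receptors, was 0.78 ± 0.20 higher with BMP than with CNTF (adjusted p = 0.0193). With the block, 10 of the 54 were higher and 7 lower with BMP, against 9.1% and 7.58% of all probe sets. The counts were 2 and 8 with CNTF (4.19% and 3.38% of all probe sets). Between the additions they were 17 and 3 (8.17% and 6.93%). The 2 of 54 higher with CNTF and the 3 of 54 lower between the additions lie near these shares.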

How the data were processed

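RNA of 18 arrays, 6 each of BMP, CNTF and control, was measured as probe set intensity. The deposited values are linear intensity values, per the file header of the value table, scaled to trimmed means of 2500.7 to 2500.8 on all arrays (2% trimmed at each end), with medians of 666.5 to 817.2; for the summary method and the scaling, nothing is given in the sources used here. For arrays, the number of arrays limits the precision, and no counts or depths exist. Gene names came from the platform annotation (20826 probe sets with 1 symbol, 436 with several and 9780 with none, of which only those with 1 were named), with symbols checked against RefSeq.

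After 57 Affymetrix controls had been left out, log2(intensity + 116.655) was fitted with limma 3.58.1 in R 4.3.3 (group means, empirical Bayes with intensity trend, two-sided, Benjamini-Hochberg adjustment over 31042 probe sets). The script was tested on simulated data whose arrays varied independently, so that test does not cover the shared deviations of same-numbered arrays. The deviations of same-numbered arrays from their group means correlated in 18 of 18 pairs (r 0.121 to 0.491, median 0.327; other pairs -0.399 to 0.357, median -0.0915), so the numbers were taken as pairing the arrays and used as a block in an alternative fit. Other alternatives, all without the block, were a constant of 16, quantile normalization, dim probe sets left out, any probe set of a gene, no intensity trend, the compared groups alone, and leaving out arrays 1 at a time. The fits without all 3 arrays of a number, also without the block, were chosen after the data were seen.

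The members, the scaffold and marker lists and the tests were chosen with earlier results of these data known. Members named are all called ones, the brightest of each class and a short list of members always named where measured. Gria3, Gabra5, Gabbr2, Chrnd, Chrna4, Htr2c and Htr5b, called in the blocked fit alone, were named after their values were seen, as were Glra1, Glra3, and the scaffold and marker genes given with values. Promoter sequences came from RefSeq (GRCr8, the 250 bases before each gene start), with 81 of 107 members matched by gene identifier, 16 of the 20 called ones among them.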

Additional observations from a re-analysis of the deposited data

Results flagged for a closer look

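In 36 named members and 3 groups, 108 sets of 6 arrays were examined for a single array far from the others by Dixon's test, and 8 stood out, where chance alone flags about 5.4. Among glutamate receptor subunits, Gria4 was 11.11 in CNTF array 6, with the other CNTF arrays at 9.86 to 10.28. Grin1 was 8.31 in BMP array 1, with the others at 9.45 to 10.09. Grin2b was 10.34 in BMP array 3 (others 9.30 to 9.61) and 8.02 in CNTF array 6 (others 8.58 to 8.88). Grik5 was 11.78 in BMP array 5 (others 11.40 to 11.52), the array that kept the BMP and control ranges from separating. Gabra2 was 10.88 in control array 6 (others 9.83 to 10.21), Chrna3 was 8.70 in control array 3 (others 6.97 to 7.59) and Htr2a was 7.15 in control array 2 (others 7.99 to 8.48). Of these genes, Grin2b, Grik5 and Chrna3 were called. Without the array concerned, the Grin2b call of BMP against control was lost for BMP array 3, and the other calls of these genes held.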

How the results depend on the processing

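With the number as a replicate block, 18 members were called for BMP against control in place of 11, 14 for CNTF against control in place of 9, and 22 for BMP against CNTF in place of 12. All 32 calls made without the block were also made with it, and it changed no call of a member's brightest probe set other than those given beside the results. Leaving out arrays, 1 at a time or all 3 of a number, gave 4 to 12 calls for BMP against control, 3 to 10 for CNTF against control and 7 to 15 for BMP against CNTF. Counts outside 1.5 times the reported one came, for BMP against control, without BMP array 1, 2 or 3, control array 1, 2 or 6 or number 1, 2 or 3. For CNTF against control they came without CNTF array 3 or 5 or number 2, 3, 5 or 6, and for BMP against CNTF without BMP array 3. Without any 1 array, 5 of 11, 4 of 9 and 7 of 12 calls held. With dim probe sets left out, only 21 members were tested. Of these, 6 were called for BMP against control, 7 for CNTF against control and 8 for BMP against CNTF. The other settings gave 9 to 12 calls for BMP against control, 9 to 10 for CNTF against control and 10 to 12 for BMP against CNTF. Of single differences of the named members, 0 called ones reversed, 187 results were weaker under an alternative, 27 passed the threshold only there and 88 uncalled differences changed sign. Except where stated, the cause was not tested. No control time, protocol or source of the arrays is given, dim members have signals near background, and 6 arrays a group limit the precision.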
